A study of Mytilus galloprovincialis with 16 samples.

Results

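The cytosolic ribosomal proteins were followed with 43 cDNA probes, among the probes that fill 3840 spots of a mussel array in duplicate, in the mantle of female Mytilus galloprovincialis. These probes were chosen by the study itself, on the same arrays, as part of a list of mantle genes that changed with gonad stage. Of the 368 rows of that list, those whose description contained ribosomal protein, and not mitochondrial, were kept. Each row was tied to the probe whose fitted log2 changes at stages 2, 3 and 4 against stage 1 lay within 0.005 of it. The largest difference among the members was 0.00245, whereas the next probe was at least 0.0152 away for every row of the list. Because those stage changes selected the members, their changes are given below as a description, and the counts of changed members support nothing by themselves. The members were 25 probes of the large subunit and 18 of the small subunit, for 39 different proteins. The acidic stalk proteins P0 and P1 and the fusion of ubiquitin with L40 were counted with the large subunit. L22, P1, S14 and S20 had 2 probes each. Another 40 probes described as ribosomal proteins in the annotation of the study were not in the list, and they were not analysed here.

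Ribosomes make protein from messenger RNA. The small subunit reads the message and the large subunit joins the amino acids, and the stalk formed by P0, P1 and P2 on the large subunit recruits the elongation factors. Growing and germ-line cells make ribosomal proteins in large amounts, and in many animals oocytes store ribosomes and their messages for the embryo. In mussels the gonad develops within the mantle, which therefore holds germ cells beside storage, muscle and epithelial cells.

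Total RNA of single female mussels was compared on 16 dual-color arrays at 4 stages of gonad development. Stage 2 (development, January) was set against stage 1 (early, November), stage 3 (ripe, February) against stage 2, stage 4 (spawning, March) against stage 3, and stage 4 also directly against stage 1. There were 4 arrays per comparison, with the dyes swapped on 2 of them, and all values are log2 ratios of the later over the earlier stage. The labels do not say which animal was on which array, so the spread between arrays may be in part technical, and the stage field of replicate 4 of stage 3 against stage 2 reads stage 4 where its title and month give stage 3. The animals were wild-caught in different months, so gonad stage and month cannot be told apart. In whole tissue, fewer cells of a type and less RNA per cell cannot be told apart either.

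The ribosomal probes were among the brightest of the array. Of the 43, 41 lay in the brightest 25% of all probes by mean log2 brightness and 28 above the 90th percentile. The median brightness of the members on an array was between 8.22 and 11.4 on the log2 scale, against 6.34 to 8.20 for all probes. Most members (36) were brighter than 95% of the empty spots in all 32 channels. The share of all probes above that level was between 46.7% and 92.7% of a channel, the lowest being Cy3 (stage 1) on replicate 1 of stage 4 against stage 1. The 2 spots of a member differed by a median of 0.08 on the log2 scale. The largest spot difference was 1.70, for the P1 probe AJ623956.

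At stage 2 most ribosomal proteins were lower than at stage 1, but this direction depended on the scaling of the arrays. The median of the 43 members on the 4 arrays was -0.17, -0.45, -0.17 and -0.37. The median of the member means was -0.31 (SD 0.14 over 4 arrays), where that of all probes was -0.03, and it turned to 0.34 when each array was centred on its own median with no correction by loess, a curve that removes the part of the ratio that varies with brightness. All 4 arrays were below 0 with loess, where those with median centring were at -0.18, 1.09, 0.29 and 0.32. With loess 23 members were lower on all 4 arrays, against 20.4% of all probes. Higher on all 4 were 7, against 18% of all probes. With limma, 4 members were called lower and 1 higher (adjusted p under 0.05 and log odds B above 0), where 4.64% of all probes were called lower and 1.88% higher. The 4 called lower were L10, S10, S12 and S26, and the 1 called higher was L7. With median centring none was called lower by limma and 1 higher, and with print-tip loess 6 were called lower and none higher, so that L7 was no longer called.

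The number called at stage 2 rested on single arrays. It was 1, 0, 3 and 1 without replicates 1, 2, 3 and 4 of that comparison. When none was called, 17 members were still at an unadjusted p under 0.05 by limma. The share of all probes at that level was not counted. The number called was 3, 2 and 3 without replicates 1, 2 and 4 of stage 3 against stage 2, and 2 and 3 without replicates 1 and 2 of stage 4 against stage 3.

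L23a (AJ626199), a protein of the large subunit that sits at the exit of the tunnel for the new chain, was the lowest member at stage 2 against stage 1. Its log2 ratios on the 4 arrays were -2.55, -2.29, -2.07 and -1.34, with a mean of -2.06 ± 0.52 (SD, n = 4). Every array was thus below the median of the members. The P1 probe AJ623956 followed at -0.51, -0.74, -0.46 and -2.62, a mean of -1.08 ± 1.03 (SD, n = 4). One array of this probe lay far below the other 3. The S27-like protein (AJ626374), named after a zinc-binding protein of the small subunit, was at -1.07, -1.28, -1.06 and -0.56, a mean of -0.99 ± 0.31 (SD, n = 4), but at -0.25 with median centring, with 2 of 4 arrays above 0. The mean of L23a with median centring was -1.36, with all 4 arrays below 0. Before normalization, its background-subtracted intensity on replicate 2 was higher in stage 2 (1456.5) than in stage 1 (1248). On replicates 1, 3 and 4 it was lower in stage 2.

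At the other end, L7 (AJ624878) was at 1.32, 0.62, 0.48 and 0.43 at stage 2 against stage 1, a mean of 0.72 ± 0.41 (SD, n = 4). It was above 0 on every array, and highest on replicate 1. The S20 probe AJ625317 was at 0.88, 0.19, 0.39 and 0.17, a mean of 0.41 ± 0.33 (SD, n = 4). L3 (AJ625380), a core protein near the catalytic center of the large subunit, was at 0.15, 0.75, 0.08 and 0.51, a mean of 0.37 ± 0.31 (SD, n = 4). Both were above 0 on all 4 arrays, but with a spread close to their mean.

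**Figure D1:**
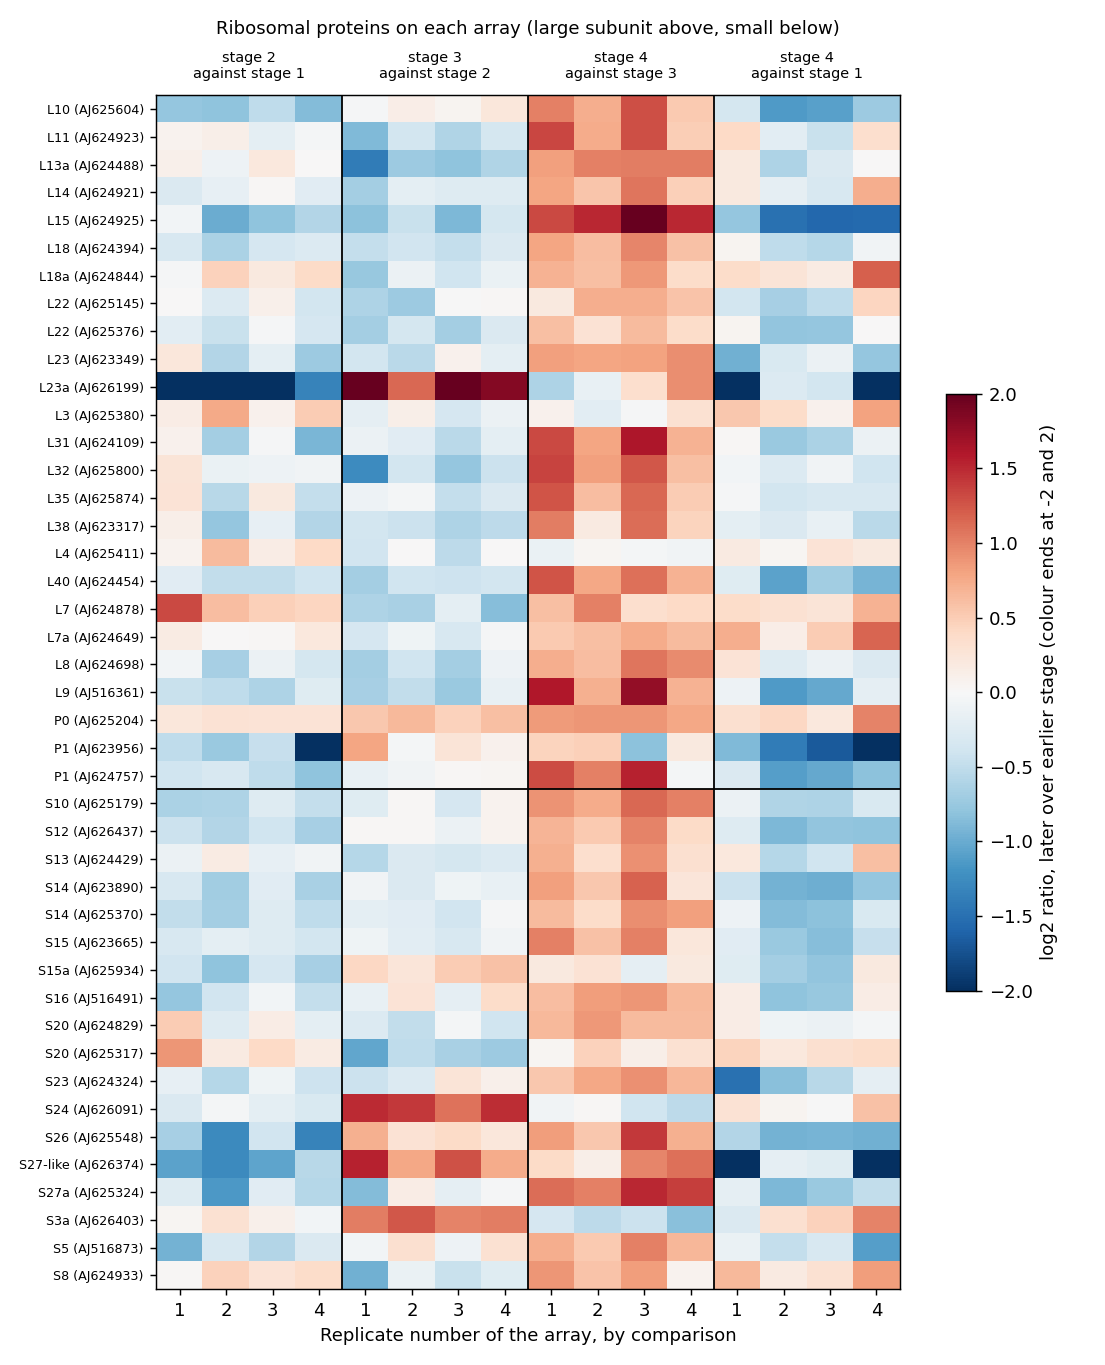
Log2 ratio of the later over the earlier stage for each of the 43 ribosomal protein probes (rows; 25 of the large subunit above the line, 18 of the small subunit below) on each of the 16 arrays (columns, by comparison and replicate number); red is higher and blue lower at the later stage, and the colour ends at -2 and 2. The block of stage 4 against stage 3 is red for 35 members on all 4 arrays. L23a and the S27-like protein are among the 7 members that are red on all 4 arrays of stage 3 against stage 2.

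At stage 3 against stage 2 the median of the large-subunit members was -0.34 and that of the small-subunit members -0.10, with members well above 0 in both subunits. The median of the 43 was -0.34, -0.19, -0.32 and -0.11 on the 4 arrays and -0.23 (SD 0.11 over 4 arrays) for the member means, against 0.03 for all probes. It was below 0 under all 6 other scalings and filters, between -0.70 with median centring and -0.14 with print-tip loess. Lower on all 4 arrays were 23 members, against 22.2% of all probes, and higher on all 4 were 7, against 24.9% of all probes. Of the 23 that were lower on every array, 16 belonged to the large subunit. By limma 2 members were called lower and 3 higher, where 6.41% of all probes were called lower and 8.39% higher. With median centring none was called lower by limma and 1 higher.

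The lowest member of this step was L13a (AJ624488), known in mammals also for silencing the translation of inflammatory messages. Its ratios were -1.41, -0.72, -0.81 and -0.60, a mean of -0.89 ± 0.36 (SD, n = 4), and it turned to 0.06 with print-tip loess, which corrects each print block of the slide on its own. The S20 probe AJ625317 was at -1.03, -0.51, -0.65 and -0.72, a mean of -0.73 ± 0.22 (SD, n = 4), and at -0.14 with print-tip loess. L13a and this S20 probe were the members called lower. L32 (AJ625800) was at -1.26, -0.36, -0.78 and -0.43, a mean of -0.71 ± 0.41 (SD, n = 4), and was not called. All 3 probes were below 0 on every array.

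Against this, 7 members were above 0 on each of the 4 arrays of this step. L23a, the lowest at the preceding step, was now the highest, at 2.43, 1.14, 2.12 and 1.83, a mean of 1.88 ± 0.55 (SD, n = 4), and the mean was 0.61 with print-tip loess. S24 (AJ626091), a small-subunit protein mutated in some human patients with Diamond-Blackfan anemia, was at 1.50, 1.42, 1.09 and 1.48, a mean of 1.37 ± 0.19 (SD, n = 4). The S27-like protein was at 1.54, 0.78, 1.27 and 0.74, a mean of 1.08 ± 0.39 (SD, n = 4), and at 0.56 with print-tip loess. These values lay clear of the members' median on every array. S3a (AJ626403), a protein of the platform of the small subunit, was at 1.02, 1.24, 0.99 and 1.02, a mean of 1.06 ± 0.12 (SD, n = 4). P0 was at 0.55, 0.65, 0.45 and 0.60, a mean of 0.56 ± 0.08 (SD, n = 4), but at 0.00 with median centring, with 2 of 4 arrays above 0. P0, S24 and S3a were the 3 members called higher, and S15a and S26 were the remaining members above 0 on all 4 arrays, where S15a was at -0.12 with median centring, with 2 of 4 arrays above 0.

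**Figure D2:**
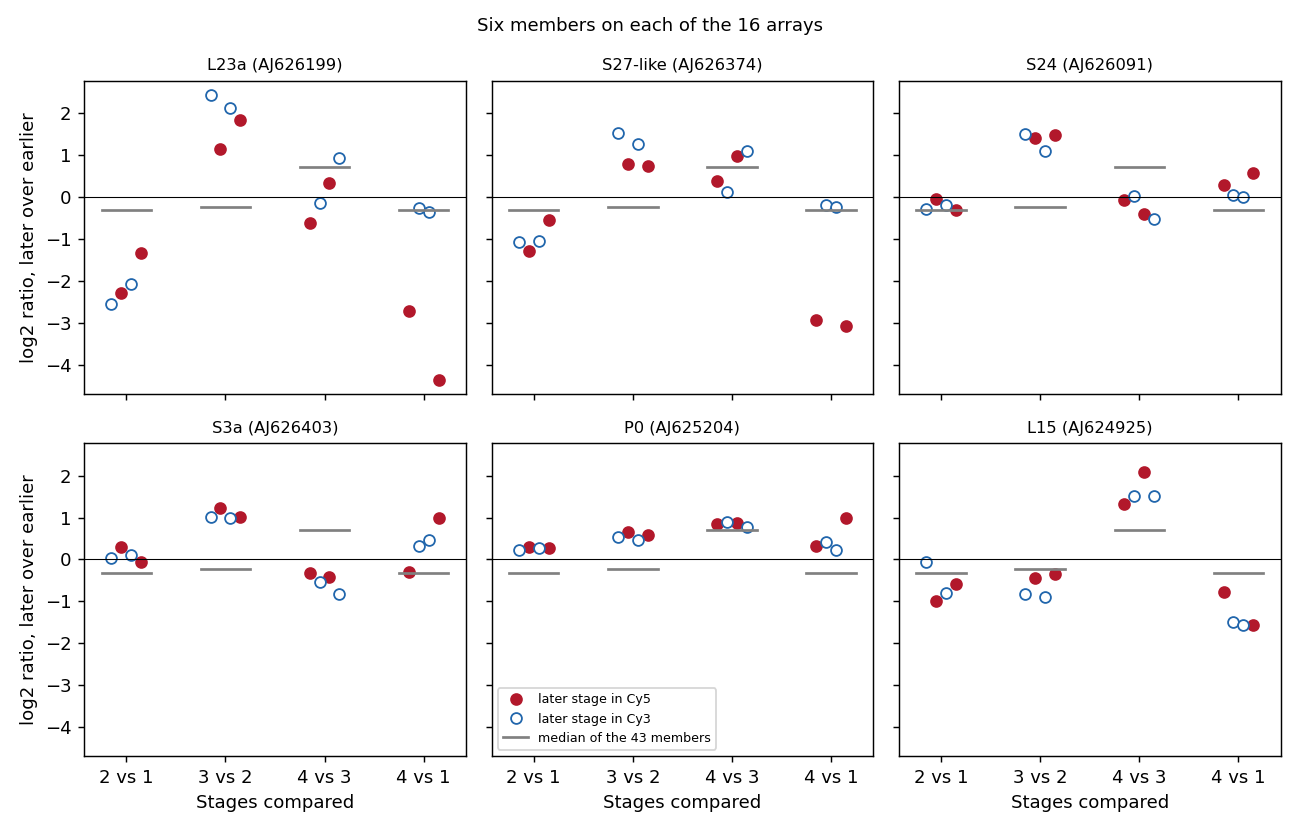
Log2 ratios of the later over the earlier stage for 6 members on the 16 arrays, by comparison (x axis); filled points are arrays with the later stage in Cy5, open points those with it in Cy3, and the grey line is the median of the 43 members. S24 and S3a stand above the members at stage 3 against stage 2 and below them at stage 4 against stage 3, and L23a and the S27-like protein split by dye at stage 4 against stage 1.

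At stage 4 nearly all ribosomal proteins were higher than at stage 3. The median of the 43 members was 0.72, 0.61, 0.97 and 0.58 on the 4 arrays and 0.71 (SD 0.18 over 4 arrays) for the member means, against -0.02 for all probes. It stayed above 0 under all 6 other scalings and filters, between 0.48 with no background correction and 1.21 with median centring. Only 3 members had a mean below 0. On all 4 arrays 35 members were higher, against 15.7% of all probes, and 1 was lower, against 16.1% of all probes. By limma 26 were called higher and none lower, where 2.97% of all probes were called higher and 2.29% lower. Of all 43, 35 were at an unadjusted p under 0.05 by limma, a level for which the share of all probes was not counted. The number called was 16 without replicate 3 of this comparison, 14 with median centring and 15 when the background was simply subtracted.

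L15 (AJ624925), a protein inside the large subunit, was highest at stage 4 against stage 3. Its ratios were 1.32, 1.51, 2.09 and 1.51, a mean of 1.61 ± 0.33 (SD, n = 4). S27a (AJ625324), made as a fusion with ubiquitin, was at 1.11, 1.00, 1.51 and 1.38, a mean of 1.25 ± 0.23 (SD, n = 4), and at 0.55 with print-tip loess. On every array both were above the median of the members. L9 (AJ516361) was at 1.60, 0.71, 1.76 and 0.70, a mean of 1.19 ± 0.57 (SD, n = 4), higher on the arrays with stage 4 in Cy5 (replicates 1 and 3) than on those with stage 4 in Cy3. The other ubiquitin fusion, L40 (AJ624454), was at 1.26, 0.78, 1.11 and 0.69, a mean of 0.96 ± 0.27 (SD, n = 4).

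The 3 members with a mean below 0 were S3a, S24 and L4. S3a was at -0.33, -0.53, -0.43 and -0.83, a mean of -0.53 ± 0.22 (SD, n = 4). S24 was at -0.07, 0.02, -0.40 and -0.53, a mean of -0.24 ± 0.26 (SD, n = 4). L4 (AJ625411), which lines the exit tunnel, was at -0.14, 0.04, -0.05 and -0.07, a mean of -0.05 ± 0.07 (SD, n = 4). None of the 3 was called, and with median centring their means were 0.02, 0.25 and 0.02 in the same order. Relative to the median of the members they were lower under either scaling, by -1.24, -0.95 and -0.76 with loess and by -1.20, -0.96 and -1.19 with median centring. They were picked as the lowest members with loess, and median centring uses the same arrays, so these distances are a description only.

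Set directly against stage 1, stage 4 again had lower values for most ribosomal proteins with loess. The median of the members was -0.10, -0.51, -0.39 and -0.17 on the 4 arrays. For the member means it was -0.32 (SD 0.19 over 4 arrays), against -0.09 for all probes. With median centring it turned to 0.68, with the arrays at 1.79, -0.04, -0.01 and 1.12. Replicates 2 and 3, with stage 4 in Cy3, thus stayed just below 0. Lower on all 4 arrays were 21 members, against 22.5% of all probes, and higher on all 4 were 8, against 13.8% of all probes. By limma 7 were called lower and 2 higher, where 4.69% of all probes were called lower and 2.81% higher. The 7 were L10, L15, L40, S12, S26, the P1 probe AJ623956 and the S14 probe AJ623890, and the 2 were L7a and P0. The number called was 5 without replicate 4 of this comparison and 9 without replicate 1, with none called higher in either case. Without any other single array 1 was called higher. With the authors' log2 ratios 11 were called lower by limma and none higher. With median centring none was called lower by limma and 4 higher, and with plain background subtraction 1 was called lower and 2 higher.

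**Figure D3:**
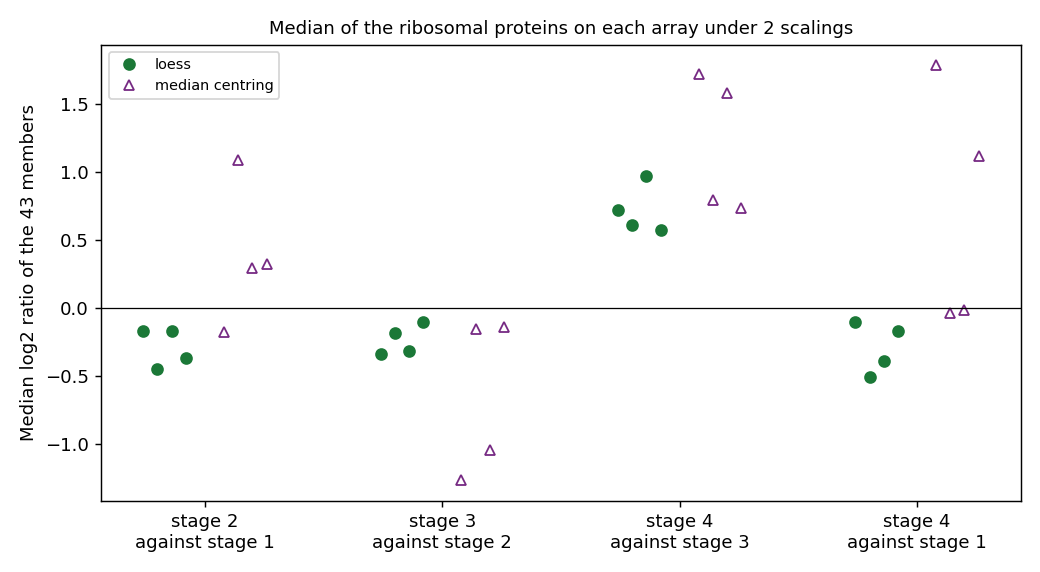
Median log2 ratio of the 43 ribosomal proteins (y axis) on each of the 4 arrays of each comparison (x axis), with loess (filled circles) and with median centring alone (open triangles). With median centring the arrays spread from -1.27 to 1.79. Stage 3 against stage 2 stays below 0 and stage 4 against stage 3 above 0 on all 4 arrays. At stage 2 against stage 1 replicate 1 stays below 0 (-0.18) and the others turn above it. At stage 4 against stage 1 replicates 1 and 4 turn above 0, and replicates 2 and 3 stay just below it (-0.04 and -0.01).

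L23a and the S27-like protein, lowest at stage 4 against stage 1, were split between arrays. L23a was at -2.71, -0.27, -0.37 and -4.36, a mean of -1.93 ± 1.97 (SD, n = 4), and the S27-like protein at -2.93, -0.19, -0.25 and -3.08, a mean of -1.61 ± 1.61 (SD, n = 4). With median centring the means were -0.90 for L23a and -0.32 for the S27-like protein, which had 2 of 4 arrays above 0, and with print-tip loess that of the S27-like protein was -0.56. The low arrays were replicates 1 and 4, which had stage 4 in Cy5, and the arrays near 0 were replicates 2 and 3, which had it in Cy3. Dye and the animals hybridized cannot be told apart here. For L23a the background-subtracted intensity was 1185 in stage 4 and 3883.5 in stage 1 on replicate 1, and 1413 in stage 4 and 5931.5 in stage 1 on replicate 4. On replicate 2 it was 2162.5 in stage 4 and 1794.5 in stage 1, and on replicate 3 it was 1490 in stage 4 and 1465 in stage 1. A part of the difference between the arrays was thus present before normalization, and the log2 ratios of replicates 1 and 4 were further below 0 after it. For the S27-like protein the intensities were closer, with 696.5 in stage 4 and 1060.5 in stage 1 on replicate 1. They were 760 in stage 4 and 1695 in stage 1 on replicate 4. On replicate 2 they were 767.5 in stage 4 and 605 in stage 1, and on replicate 3 they were 578 and 489.5. The intensities on replicates 1 and 4 were much closer than the log2 ratios of -2.93 and -3.08 after loess.

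The P1 probe AJ623956 was at -0.88, -1.40, -1.68 and -2.33 at stage 4 against stage 1, a mean of -1.57 ± 0.60 (SD, n = 4). L15 was at -0.77, -1.49, -1.57 and -1.56, a mean of -1.35 ± 0.39 (SD, n = 4). All 4 arrays were below 0 for both. On replicate 1, however, the 2 spots of the P1 probe were at -0.03 and -1.73. Its background-subtracted intensity there was 146 in stage 4 and 98 in stage 1. The 2 spots of this probe differed by a median of 0.49 over the arrays. L7a (AJ624649) was highest, at 0.72, 0.13, 0.50 and 1.16, a mean of 0.63 ± 0.43 (SD, n = 4). L18a (AJ624844) was at 0.37, 0.26, 0.17 and 1.20, a mean of 0.50 ± 0.48 (SD, n = 4), and S8 (AJ624933) at 0.65, 0.18, 0.30 and 0.84, a mean of 0.49 ± 0.31 (SD, n = 4). These 3 were above 0 on every array, with replicate 4 the highest for each.

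P0, on which the stalk is built, was above 0 on all 16 arrays with loess, though on 2 of the 4 at stage 3 against stage 2 with median centring. It was at 0.23, 0.29, 0.27 and 0.27 at stage 2 against stage 1, at 0.84, 0.88, 0.88 and 0.77 at stage 4 against stage 3, and at 0.32, 0.41, 0.21 and 1.00 at stage 4 against stage 1. The spread at stage 2 against stage 1 was small, at 0.26 ± 0.02 (SD, n = 4). With loess it was the sole member with a positive mean at each of the 3 successive steps, while with median centring 3 members had one, S24 and S3a among them. Also with loess, 22 of the 43 were lower, lower and higher over the 3 steps, against 9.06% of all probes. A further 9 were lower, higher and higher, against 13.8% of all probes, and 8 were higher, lower and higher, against 14.6% of all probes. These patterns depended on the scaling, since with median centring 3 members were lower, lower and higher and 34 were higher, lower and higher, the last against 23.4% of all probes. The remaining members with loess were P0, S3a (higher, higher, lower), L4 (higher, lower, lower) and S24 (lower, higher, lower).

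The large and the small subunit were then set side by side. At stage 2 against stage 1 the median of the large-subunit members was -0.26 and that of the small-subunit members -0.45, a difference of 0.19 (SD 0.13 over 4 arrays). At stage 3 against stage 2 the order was the other way round, with -0.34 for the large subunit and -0.10 for the small subunit, a difference of -0.24 (SD 0.05). For stage 4 against stage 3 they were at 0.84 for the large subunit and 0.69 for the small subunit, a difference of 0.15 (SD 0.05). For stage 4 against stage 1 they were at -0.27 for the large subunit and -0.46 for the small subunit, a difference of 0.18 (SD 0.10).

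The differences were small beside the range within each subunit, but their sign was the same on the 4 arrays of each comparison. They were 0.33, 0.02, 0.14 and 0.10 on the arrays of stage 2 against stage 1. They were -0.36, -0.37, -0.31 and -0.26 at stage 3 against stage 2, and 0.15, 0.17, 0.09 and 0.07 at stage 4 against stage 3. On those of stage 4 against stage 1 they were 0.18, 0.34, 0.26 and 0.12. With median centring all 16 arrays kept these signs. At stage 2 against stage 1 the difference was 0.08 with print-tip loess, 0.28 without P0, P1 and L40, and 0.11 without replicate 1. That of stage 4 over stage 3 was 0.07 with the authors' log2 ratios, 0.02 with median centring, 0.05 with plain background subtraction and 0.05 without P0, P1 and L40. It was 0.08 without replicate 1 and 0.06 without replicate 4 of that comparison. At stage 3 against stage 2, where 21 of the 25 large-subunit means and 10 of the 18 small-subunit means were below 0, it was between -0.44 and -0.18 under the alternatives. For stage 4 against stage 1 it was 0.32 with median centring, 0.12 with no background correction and 0.29 without replicate 4.

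**Figure D4:**
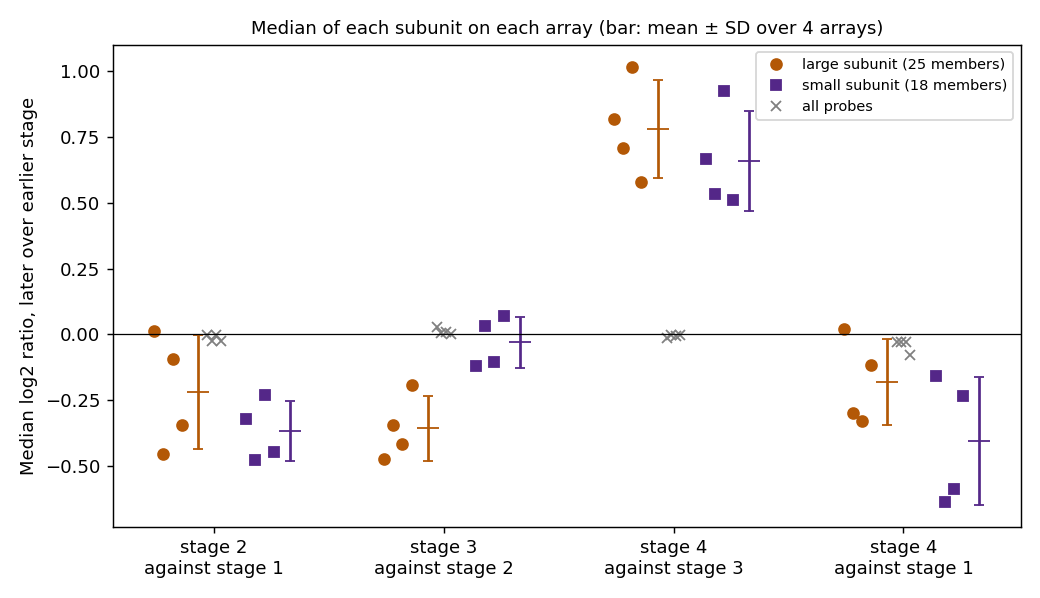
Median log2 ratio of the 25 large-subunit members (circles) and the 18 small-subunit members (squares) on each array, by comparison, with the mean ± SD of the 4 array medians (bars) and the median of all probes (crosses). The large subunit is lower than the small one on each array of stage 3 against stage 2 and higher than it on each array of the other comparisons.

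The proteins measured by 2 probes showed how far probes of a single protein can differ. Those of S14 (AJ623890 and AJ625370) had the same sign on all 16 arrays and differed by at most 0.58. Of stage 4 over stage 3, AJ623890 was at 0.82, 0.53, 1.18 and 0.24 and AJ625370 at 0.62, 0.36, 0.93 and 0.83. Those of L22 (AJ625145 and AJ625376) had the same sign on 12 arrays and differed by at most 0.67. Both were above 0 on every array of stage 4 over stage 3, AJ625145 at 0.19, 0.72, 0.73 and 0.58 and AJ625376 at 0.59, 0.29, 0.64 and 0.36. By contrast, the S20 probes moved apart, since AJ624829 was lower than AJ625317 on all 4 arrays of stage 2 against stage 1, where it was at 0.50, -0.26, 0.16 and -0.20, by -0.36 ± 0.09 (SD, n = 4), and of stage 4 against stage 1, by -0.36 ± 0.07 (SD, n = 4). AJ624829 was higher than AJ625317 by 0.43 ± 0.33 at stage 3 against stage 2 and by 0.47 ± 0.12 at stage 4 against stage 3 (SD, n = 4 each). The P1 probes (AJ623956 and AJ624757) had the same sign on 13 arrays and differed by up to 2.37. AJ624757 was at 1.30, 1.01, 1.54 and -0.03 at stage 4 against stage 3, where AJ623956 was at 0.44, 0.48, -0.82 and 0.19. Whether the probes of a protein come from 1 gene is not stated in the annotation.

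The remaining 18 members, 9 of each subunit, are what is left once the lowest and highest members of each comparison and the proteins named by rule are set aside, so their ranges are narrower by construction. At stage 2 against stage 1 all 18 means were below 0, between -0.91 and -0.01. At stage 3 against stage 2 their means were between -0.55 and 0.44, with 12 below 0. Of stage 4 over stage 3 all 18 means were above 0, between 0.12 and 1.10, and 17 of them on all 4 arrays. Of stage 4 over stage 1 they were between -0.85 and 0.11, with 16 below 0.

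Both routes from stage 1 to stage 4 round the loop can be compared. The coefficients that picked the members do not hold this measure, but a mismatch adds to the residual spread of the fit on which the study selected its list, so that the measure is not independent of the selection. The sum of the 3 steps had a median of 0.29 over the members and was above 0 for 36 of them, whereas the direct comparison had a median of -0.32 and was above 0 for 12. Over all probes these medians were -0.02 and -0.09. For 26 of the 43 members the routes had opposite signs, a count not made for all probes. The difference, called here the loop mismatch, had a median of 0.69 over the members, 0.38 over the large subunit and 0.73 over the small subunit, against 0.11 over all probes. It was above 0 for 38 of the 43 members and for 61.4% of all probes. With median centring the median of the members was 0.25.

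By limma the mismatch passed both thresholds for 2 of the 43 members, against 5.78% of all probes, and 19 members were at an unadjusted p under 0.05. The 2 were P0, at 1.19 (SE 0.20, adjusted p = 0.00116 from limma), and L15, at 1.71 (SE 0.34, adjusted p = 0.00302 from limma). For P0 the steps added up to 1.67 where the direct mean was 0.48 ± 0.35 (SD, n = 4), and for L15 they added up to 0.37 where the direct mean was -1.35. The number called was 5 without replicate 1 of stage 4 against stage 1, 4 without replicate 4 of stage 4 against stage 3 and 1 without replicate 4 of stage 3 against stage 2. With median centring none was called by limma and 3 were at an unadjusted p under 0.05. With plain subtraction of the background none was called by limma and 8 were at that level. The share of all probes at that level was not counted under these alternatives. The S27-like protein had the largest mismatch, at 2.35, and was not called (adjusted p = 0.0616 from limma).

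**Figure D5:**
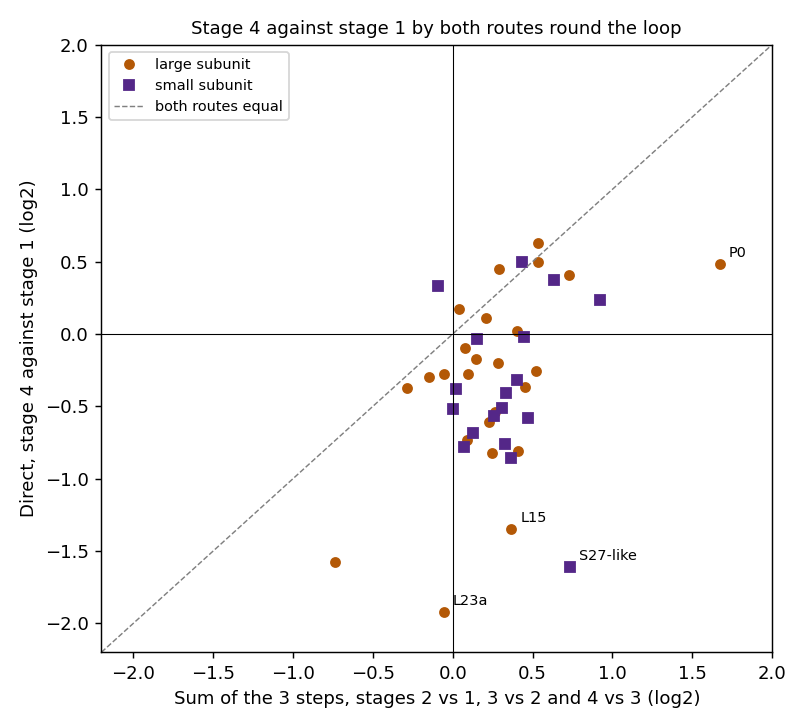
Mean log2 ratio of stage 4 over stage 1 measured directly (y axis) against the sum of the 3 successive steps (x axis), for each of the 43 members by subunit; the dashed line marks equal routes. Most points lie below the line, 26 of the 43 have opposite signs by the routes, and P0 and L15 are the members called for the difference.

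When all arrays entered a single fit with 3 stage coefficients, as in the selection of the members, the median of the 43 was -0.44 at stage 2, -0.87 at stage 3 and -0.22 at stage 4, each against stage 1. The large subunit was at -0.33, -0.91 and -0.16 at those stages, and the small subunit at -0.61, -0.85 and -0.29. With median centring the median of the 43 turned to 0.29 at stage 2 and to 0.74 at stage 4, and it was -0.43 at stage 3. The value at stage 4 was -0.14 without replicate 2 and -0.13 without replicate 3 of stage 4 against stage 1.

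A dye effect, to which the same limit applies, was called for 3 of the 43 members, against 1.04% of all probes. These were L9, at 0.31 (Cy5 over Cy3, adjusted p = 0.0432 from limma), L11, at 0.23 (adjusted p = 0.0436), and S8, at 0.23 (adjusted p = 0.0436). The median over the members was 0.08, against -0.01 over all probes. With print-tip loess none was called by limma, with 15 members at an unadjusted p under 0.05. With the dyes balanced in each comparison, the effect cancels in its mean but adds to the spread between its arrays. On the arrays with the later stage in Cy5 and in Cy3, the medians of the members were -0.43 and -0.13 at stage 2 against stage 1, and -0.14 and -0.29 at stage 3 against stage 2. In the same order they were 0.86 and 0.60 at stage 4 against stage 3, and -0.05 and -0.45 at stage 4 against stage 1. With loess the sign was thus the same in both orientations of each comparison. With median centring it was not the same at stage 4 against stage 1. There the arrays with stage 4 in Cy5 were at 1.79 and 1.12, and those with it in Cy3 at -0.04 and -0.01.

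The other genes of protein synthesis in the list of the study, 11 probes for initiation and elongation factors, were also selected on these arrays. At stage 2 against stage 1 their median was 0.55, and 10 of 11 were higher on all 4 arrays, with 2 called higher, where 18% of all probes were higher on all 4 arrays and 1.88% were called higher. At stage 3 against stage 2 it was -0.55, with 9 lower on all 4 arrays and 5 called lower, against 22.2% and 6.41% of all probes, and at stage 4 against stage 3 it was -0.08 with none called by limma. For stage 4 against stage 1 it was 0.44, with 2 called higher, against 2.81% of all probes. With median centring the median of stage 4 over stage 3 turned to 0.15. The others were then 1.13 at stage 2 against stage 1, -1.001 at stage 3 against stage 2 and 0.90 at stage 4 against stage 1. Elongation factor 2 (AJ624248), which moves the ribosome along the message, was at 0.82, 0.39, 0.55 and 0.44 at stage 2 against stage 1 and at -0.80, -0.70, -0.80 and -0.99 at stage 3 against stage 2. In the ratio of stage 4 over stage 3 it was at -0.21, -0.04, -0.05 and -0.03, where 35 of the ribosomal proteins were higher on every array. Another probe for elongation factor 2 (AJ624593) was not called in any comparison. Its means were 0.31 at stage 2 against stage 1, -0.55 at stage 3 against stage 2 and -0.25 at stage 4 against stage 3.

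Of the related genes outside the rule, the qm-like protein (AJ625546), named after the human QM gene for L10, was at -0.64, -0.53, -0.66 and -0.68 at stage 2 against stage 1. It was at 1.34, 1.03, 1.65 and 0.83 at stage 4 against stage 3, and its mean at stage 4 against stage 1 was -0.93. The member L10 (AJ625604) was at -0.77, -0.81, -0.51 and -0.86 at stage 2 against stage 1, at 1.01, 0.73, 1.29 and 0.53 at stage 4 against stage 3, and at -0.82 on average at stage 4 against stage 1. The signs of the 2 probes were the same on each of these arrays. At stage 3 against stage 2 they differed on replicates 1 and 3. There the qm-like protein was at 0.048, 0.031, -0.14 and 0.025, and L10 at -0.028, 0.136, 0.052 and 0.221. The probes for GTP binding protein 4 (AJ626416 and AJ623860) are named after a nucleolar protein that matures the large subunit. Their means were 0.68 and 0.33 at stage 2 against stage 1, -0.96 and -0.82 at stage 3 against stage 2, and 0.09 and 0.36 at stage 4 against stage 3. Chromosome 15 open reading frame 15 (AJ626336), an older name of a ribosome assembly factor, was at 0.37, -0.39 and 0.09 in those comparisons. At stage 2 against stage 1 these 3 probes were higher on all 4 arrays, as were 18% of all probes, where the median of the ribosomal proteins was -0.31.

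Markers of eggs and of cilia or flagella moved over the same stages, as did the chitinases, and their part in the values of the ribosomal proteins was not tested. Whether the chitinases mark a cell type of the mantle was not tested either. Set against stage 3, stage 4 had means of 1.46 and 0.24 for the probes of the egg coat proteins vitelline envelope zona pellucida domain 9 (AJ625914) and domain 7 (AJ625872), whose median was between 0.39 and 1.28 on the 4 arrays. Of stage 3 over stage 2 both were higher on all 4 arrays, with a median of 1.38. Of stage 2 over stage 1 the median was -0.89, with means of -0.36 for domain 9 and -1.41 for domain 7. Of stage 4 over stage 1 the probes parted, with means of 0.09 for domain 9 and -1.63 for domain 7. Their median there was -0.77 with loess and 0.02 with median centring, where 1 probe was lower and 1 higher on all 4 arrays. The 2 probes for an axonemal dynein and a radial spoke protein of cilia and flagella had a median of -0.04 at stage 2 against stage 1 (0.15 with median centring), of 1.09 at stage 3 against stage 2, of -0.47 at stage 4 against stage 3 and of 0.47 at stage 4 against stage 1. The 6 chitinase probes, enzymes that degrade chitin, had a median of 1.02 at stage 2 against stage 1 (0.56 without replicate 1, whose median was 2.31, and 1.83 with median centring), of -2.17 at stage 3 against stage 2, of -0.18 at stage 4 against stage 3 (0.06 with median centring) and of -2.33 at stage 4 against stage 1, where median centring gave -1.45. No muscle marker of the list drawn up for it was among the rows of the study's list.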

How the data were processed

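The authors scanned the arrays and deposited spot intensity values from GenePix, mean foreground and median local background per channel, before normalization. Beside these they deposited log2 ratios, for which their methods name offset background subtraction and loess in limma, of a version not given in their text. Per array there were 4560 spots, of which 608 were empty, 112 served alignment and the rest were the duplicate spots of 1920 probes.

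Here the deposited intensities were background-corrected (normexp, offset 50), followed by loess within arrays with control spots at weight 0 and by averaging of duplicate spots (R 4.3.3, limma 3.58.1). All 16 arrays entered a limma fit with 1 coefficient per comparison, from which the loop mismatch was taken as a contrast. A second fit had 3 stage coefficients against stage 1, and a dye intercept was added for the dye effect. A probe was called at a Benjamini-Hochberg adjusted p under 0.05 over all probes and B above 0 (prior share 0.01). Printed SDs are over 4 arrays. The fit was tested on simulated data.

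The members and lists were chosen with earlier results of these data known. Values by array are given for the 3 lowest and 3 highest members of each comparison and, in at least 1 comparison, for proteins with 2 probes, P0 and the ubiquitin fusions; L10 and the genes outside the set were named after their values were seen. No 2 arrays of a comparison were alike within spot error (variance of their differences at least 1.39 times that between spots). Arrays with the same replicate number deviated from their comparison means with correlations between -0.21 and 0.19. Of 24 such correlations, 5 were above the limit of 0.1. In the main fit the replicate numbers were not treated as pairs. No batch was given in the labels, and the number of arrays limits the precision. Alternatives were median centring, print-tip loess, plain or no background correction, the authors' ratios, a filter on dim probes, a replicate block, a dye intercept, the adjusted p alone and leaving out arrays; those for the lists of other genes and the step patterns were chosen after seeing the data.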

Additional observations from a re-analysis of the deposited data

Results flagged for a closer look

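Of 108 groups of 4 arrays, 7 had an array far from the other 3, where chance gives about 1 in 20. At stage 2 against stage 1 the P1 probe AJ623956 was at -2.62 on replicate 4, with the others between -0.74 and -0.46, and L32 (AJ625800) was at 0.26 on replicate 1, with the others between -0.14 and -0.07. At stage 3 against stage 2, S3a (AJ626403) was at 1.24 on replicate 2, with the others between 0.99 and 1.02, and L40 (AJ624454) at -0.68 on replicate 1, with the others between -0.42 and -0.37. At stage 4 against stage 3, L13a (AJ624488) was at 0.82 on replicate 1, with the others between 1.01 and 1.03, and the S20 probe AJ624829 at 0.87 on replicate 2, with the others between 0.63 and 0.65. At stage 4 against stage 1, L15 (AJ624925) was at -0.77 on replicate 1, with the others between -1.57 and -1.49. Except for P1, L32 and L15, the distance was under 0.30 on the log2 scale.

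The routes from stage 1 to stage 4 differed for 2 members by limma, with a loop mismatch of 1.71 for L15 and of 1.19 for P0, a smaller share of the 43 than the 5.78% of all probes. Neither was called with median centring or with plain subtraction of the background.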

How the results depend on the processing

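Median centring moved the medians most, and the cause was not tested. With it they turned to 0.34 at stage 2 against stage 1 and to 0.68 at stage 4 against stage 1, and in the single fit to 0.29 at stage 2 and 0.74 at stage 4. It also gave -0.70 at stage 3 against stage 2, 1.21 at stage 4 against stage 3, -0.43 for stage 3 in the single fit, 0.25 for the mismatch, and large minus small differences of -0.19 at stage 3 over 2, 0.0194 at stage 4 over 3 and 0.32 at stage 4 over 1. The numbers called were then 1, 1, 14, 4 and, for the mismatch, 0 by limma (3 at an unadjusted p under 0.05). With plain background subtraction they were 2 at stage 2 against stage 1, 15 at stage 4 against stage 3, 3 at stage 4 against stage 1 and 0 for the mismatch by limma (8 at that level), whose median was 0.29, and large minus small was -0.44 at stage 3 against stage 2 and 0.0517 at stage 4 against stage 3. With no background correction the medians were 0.48 at stage 4 against stage 3, -0.56 for stage 3 in the single fit and 0.33 for the mismatch, large minus small was -0.18 at stage 3 against stage 2, and 5 were called at stage 4 against stage 1. With the authors' ratios 3 were called at stage 2 against stage 1 and 4 for the mismatch, and large minus small was 0.0656 at stage 4 against stage 3, where it was 0.0506 without P0, P1 and L40. With dim probes left out 3 were called at stage 2 against stage 1. Print-tip loess gave -0.70 for stage 3 in the single fit, 0 for the dye effect by limma (15 at that level, an alternative chosen after seeing the data) and 0.0595 for L13a at stage 3 against stage 2. With the adjusted p alone 16 were called at stage 2 over 1, 17 at stage 3 over 2, 24 at stage 4 over 1 and 11 for the mismatch. The share of all probes called, or at an unadjusted p under 0.05, was not counted under the alternatives.

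Leaving out 1 array gave 0 to 6 called at stage 2 against stage 1, 4 to 6 at stage 3 against stage 2, 16 to 28 at stage 4 against stage 3, 5 to 9 at stage 4 against stage 1 and 1 to 5 for the mismatch. Large minus small was between 0.11 and 0.23, -0.33 and -0.26, 0.0649 and 0.18, and 0.14 and 0.29 in the same order of comparisons. The medians kept their direction, between -0.36 and -0.23, -0.27 and -0.18, 0.64 and 0.77, and -0.45 and -0.24. The replicate block (correlation 0.0442) left 5, 5, 26, 9 and 2 called, and changed no call among the members. Plain subtraction left 3 members without a value on some array.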
